A study of Mus musculus with 6 samples.

Results

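Organoids grown from mouse esophagus under the ligands TGFb1 and BMP4 plus ibuprofen were compared with organoids under an inhibitor of TGFb receptor signalling, across every gene of the deposited table with at least 1 CPM (reads of a gene scaled to a common library total) in 2 or more of the 4 libraries. That rule kept 17424 of 52636 genes, and 4 of the 6 libraries of the series enter the comparison. The organoids came from K5:Smo mice (Krt5CreER:RosaSmoM2), in which tamoxifen switches on SmoM2, a permanently active Smoothened, in cells that use the Krt5 promoter. All groups share this genotype. Esophagi were dissected 5 days after tamoxifen, the cells were kept in matrigel in KSFM medium for 13 days, and each treatment lasted 72 h with renewal every 24 h. The inhibitor group, labelled as the control, received A8301 at 500 nM. The ibuprofen group received TGFb1 at 1 ng/ml, BMP4 at 20 ng/ml and ibuprofen at 500 µM. A group with the same ligands and no ibuprofen, also of 2 libraries, is used to place values and for direct tests beside the main comparison. Its libraries also enter the estimate of spread in the main test. The ligand and inhibitor conditions are opposite poles, no group here lacks both, and no group received ibuprofen without ligands, so the comparison cannot split what the ligands, A8301 and ibuprofen each contributed. The labels do not say whether A8301 was present before or during ligand treatment. They also leave unstated whether replicates are separate cultures or mice, and p-values then reflect spread between libraries that may be technical.

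TGFb1 binds its receptor kinases and acts through the transcription factors SMAD2 and SMAD3, while BMP4 acts through SMAD1 and SMAD5, and each branch switches on its own inhibitors. A8301 blocks the TGFb type I receptor ALK5 and its relatives ALK4 and ALK7. Ibuprofen blocks the cyclooxygenases that make prostaglandins, and at high concentration it also binds PPAR nuclear receptors, which control fatty acid use. Smoothened, when active, drives GLI transcription factors, whose targets include Gli1 and the receptor Ptch1. In the esophagus, basal cells that carry Krt5 and Krt14 rest on a laminin-rich basement membrane and replace the suprabasal cells above them, which make Krt4, Krt13 and, in rodents, a cornified surface.

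Depth recovered from the deposited values was 6413873 to 7730582 reads per library over the 6 libraries, and the 2 libraries of each group differed by more than counting noise. Of the 17424 genes, 7403 (42.5%) passed an adjusted p of 0.05 in limma, 3891 higher with ligands plus ibuprofen (22.3%) and 3512 lower (20.2%). With no scaling factors 3328 were higher and 4234 lower. At least 2-fold changes were called for 1672 higher genes (9.6%) and 1396 lower genes (8.01%). Over all tested genes the median log2 fold change was -0.01, with quartiles at -0.41 and 0.41. With so many genes called, a list in which about 2 in 5 members pass is at the background of this comparison. Without inhibitor replicate 1 the number called was 4816, and the number lower was 2190 without that library and 2209 without inhibitor replicate 2. Ribosomal protein genes made up 2.72% ± 0.163 (SD, n = 2) of CPM with the inhibitor and 1.90% ± 0.113 with ligands plus ibuprofen, and 63 of 86 fell and 0 rose. The nuclear RNAs Malat1 and Neat1 made up 1.65% ± 0.127 and 3.32% ± 0.0141. The part of these shifts in the results below was not tested.

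**Figure D1:**
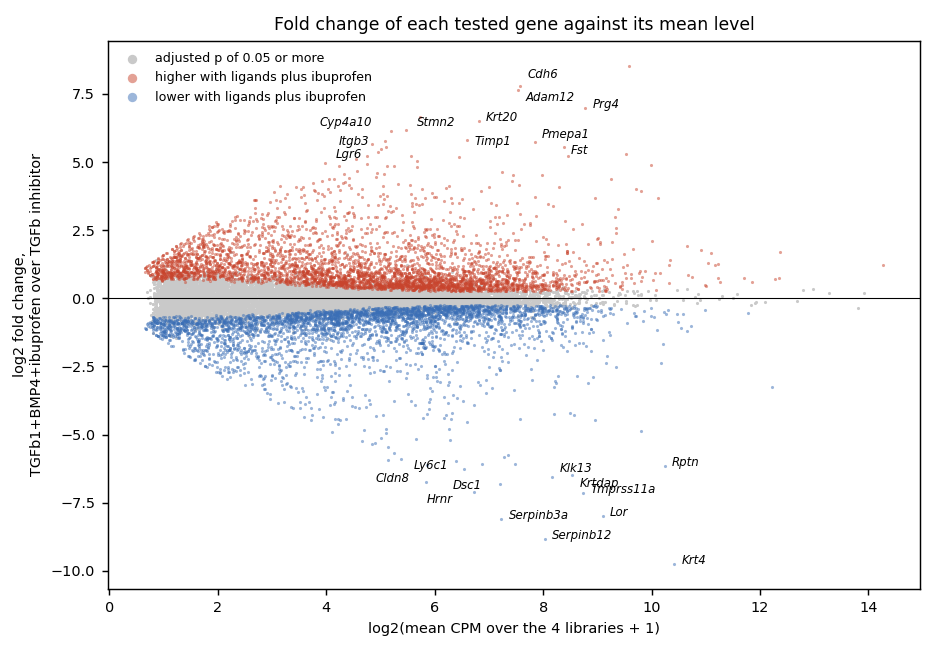
Each point is a tested gene, with its mean level over the 4 libraries as log2(CPM + 1) on the x axis and its log2 fold change, ligands plus ibuprofen over inhibitor, on the y axis. Coloured points passed an adjusted p of 0.05, and labelled genes, from the largest rises and falls, run from Cdh6 at 7.81 to Krt4 at -9.74.

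Krt5, Krt14 and Trp63, which mark stratified epithelium, and the epithelial gene Cdh1 were present in all 4 libraries. Of the 7 epithelial markers 3 rose (Epcam, Krt5 and Krt14) and 3 fell (Krt4, Krt13 and Trp63), with a median of 0.05. Levels are given below as the CPM of inhibitor replicates 1 and 2 against the CPM of ligands-plus-ibuprofen replicates 1 and 2, and log2 fold changes run from the inhibitor to ligands plus ibuprofen. Cdh1, the epithelial cadherin, stood at 635 and 635 against 608 and 617 CPM (log2 fold change 0.05, SE 0.14, adjusted p = 0.824). Columnar markers of other gut epithelia such as Cdx2, Vil1, Hnf4a and Tff1 were below the filter. Of the 15 columnar and simple-epithelial genes that were tested, however, 7 rose and 1 fell, with Krt20, Sox9 and Epcam among the rises given below. Fibroblast markers moved with treatment: 11 of 13 rose and 1 fell (median 1.72), and their summed level was 211 and 274 CPM with the inhibitor and 1530 and 1930 CPM with ligands plus ibuprofen. Dcn, the decorin gene of fibroblasts, was present throughout at 79.5 and 125 against 222 and 242 CPM. Pdgfra, a fibroblast receptor, was at 17.1 and 21.6 against 67.9 and 67.8 CPM (log2 fold change 1.86, SE 0.22, adjusted p = 0.000335), and Dpt, a dermal matrix gene, had no read with the inhibitor and 2.35 and 5.35 CPM with ligands plus ibuprofen, at least 18.8-fold higher against a floor of 3 reads over the group. Thy1 did not pass, at 2.65 and 3.9 against 2.05 and 5.35 CPM (log2 fold change 0.13, SE 0.37, adjusted p = 0.802), and Fbln1 fell, at 40.1 and 40.1 against 6.95 and 8.44 CPM. Muscle markers rose in 4 of 5 tested members, with sums of 515 and 588 against 893 and 1160 CPM. Titin, Ttn, of striated muscle gave most of that sum at 370.4 and 379 against 569 and 735 CPM, while Myh11 of smooth muscle was at 0 to 0.15 CPM. Immune markers summed to 57.8 and 68.0 against 41.5 and 66.0 CPM, mostly from the lysosomal and lysozyme genes Cd68 and Lyz2. These moved in opposite directions: Cd68 was at 49.1 and 50.8 against 18.8 and 15 CPM (log2 fold change -1.42, SE 0.15, adjusted p = 0.000144). Lyz2 was at 2.9 and 10.1 against 16.9 and 44.3 CPM (log2 fold change 2.20, SE 0.65, adjusted p = 0.025). The Lyz2 call was lost without inhibitor replicate 1 (adjusted p = 0.172) or ibuprofen replicate 2 (0.157), with no filter on low values (0.0949) and with limma-voom (0.0539). Ptprc, which marks leukocytes, and Cd3e, which marks T cells, had at most 0.5 CPM in any of the 4 libraries. Endothelial markers summed to 3.85 to 8.70 CPM, and the Schwann cell gene Sox10 had at most 0.2 CPM. In bulk RNA, fewer or more cells of a type and less or more RNA per cell cannot be told apart, and the part of fibroblasts and muscle in the results below was not tested.

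**Figure D2:**
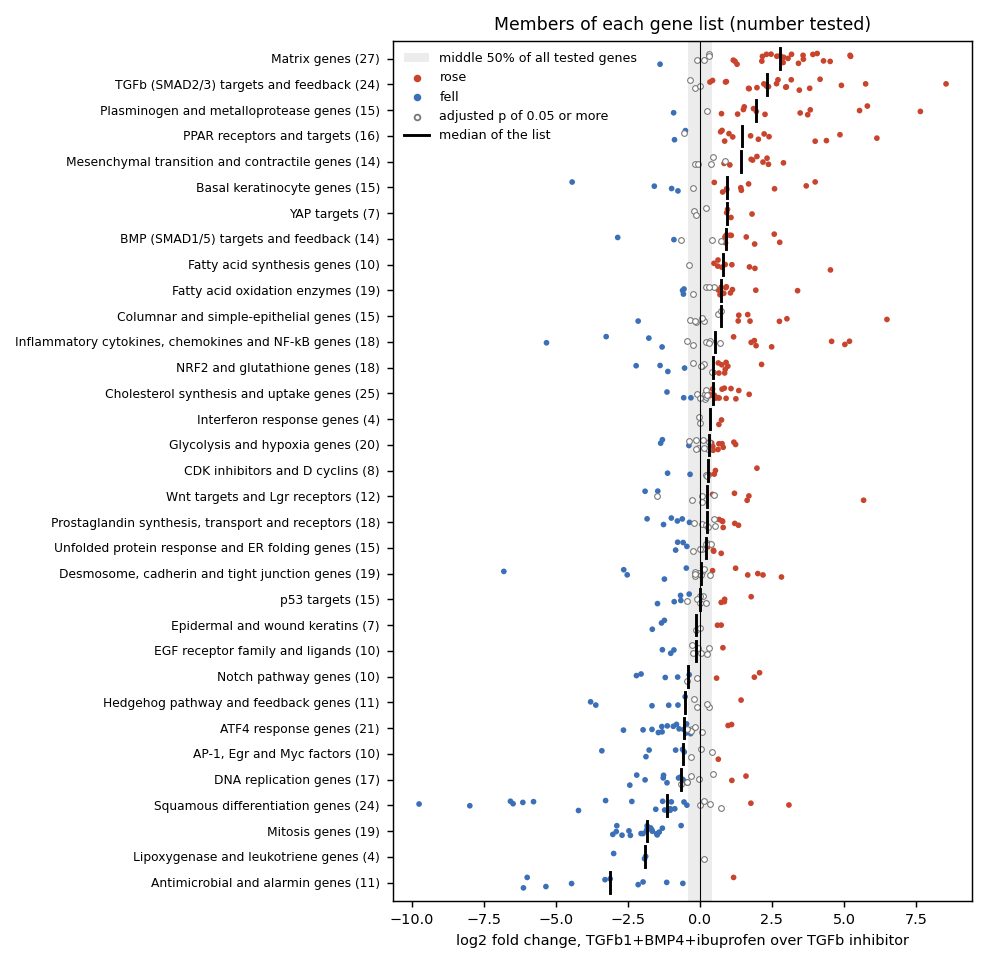
Points are the tested members of each gene list (number in parentheses) by their log2 fold change, ligands plus ibuprofen over inhibitor; filled points passed an adjusted p of 0.05, the black bar is the list's median and the grey band spans the quartiles of all genes, -0.41 to 0.41. Matrix and TGFb target lists sit at the high end with medians of 2.79 and 2.34, and antimicrobial genes at the low end with -3.11.

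Targets and feedback inhibitors of the TGFb branch were the most uniformly raised signalling list: 21 of 24 rose and 0 fell, with a median of 2.34 against -0.01 over all genes. Pmepa1, a membrane protein that retains SMADs, was at 6.85 and 9.19 against 474 and 426 CPM (log2 fold change 5.75, SE 0.14, adjusted p = 2.02e-07). Tgfbi, a secreted adhesion protein named for its induction by TGFb, was at 75.8 and 62.4 against 1868 and 2046 CPM (log2 fold change 4.91, SE 0.12, adjusted p = 2.02e-07). The libraries of both genes are far apart between the groups and do not overlap. The inhibitory SMAD of the pathway, Smad7, was at 21.8 and 25.5 against 145 and 144 CPM (log2 fold change 2.66, SE 0.11, adjusted p = 1.82e-06). The corepressors Skil and Ski rose by 1.71 and 0.35, although Ski missed the threshold without inhibitor replicate 1 (adjusted p = 0.0577) or 2 (0.0664). The ligand gene Tgfb1 itself rose by 1.69 (SE 0.11, adjusted p = 1.70e-05), and Itgb6, a subunit of the integrin that releases latent TGFb, rose by 2.71 (SE 0.28, adjusted p = 0.000141). Among the 3 members that did not pass were Junb (0.02, adjusted p = 0.927) and Tsc22d1 (-0.16, adjusted p = 0.275).

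Several of these targets stood above the group that had ligands alone. Tested directly against TGFb1+BMP4, where 10.7% of all genes were higher and 8.86% lower, 6 of the 24 members were higher and 2 were lower. Tgfbi was at 1259 and 1192 CPM with ligands alone, and the difference on adding ibuprofen was 0.73 (adjusted p = 0.00382), and for Pmepa1, with 391 and 344 CPM, it was 0.35 (adjusted p = 0.127). Ctgf, a matricellular target shared with YAP, was in the opposite order, with 9.44 and 4.7 CPM with the inhibitor, 166 and 184 CPM with TGFb1+BMP4 and 66.6 and 61.4 CPM with ibuprofen added.

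The BMP branch was raised less evenly, with 9 of 14 tested members higher, 2 lower and a median of 0.90, and the number lower was 1 when inhibitor replicate 1 or either ibuprofen library was left out. Id1, a dominant-negative partner of bHLH factors and the classic BMP target, was at 79.4 and 90 against 132 and 169 CPM (log2 fold change 0.91, SE 0.14, adjusted p = 0.000942). Id2 was at 10.7 and 6.75 against 29.2 and 35.5 CPM (log2 fold change 1.90, SE 0.30, adjusted p = 0.00143). Id3 was at 39.6 and 42.4 against 71.8 and 88.4 CPM (log2 fold change 1.04, SE 0.16, adjusted p = 0.00128). The libraries of these Id genes did not overlap between the groups, and those of Id2 and Id3 were below the ligand group, at 116 and 61.7 CPM for Id2 and 212 and 163 CPM for Id3. The difference on adding ibuprofen was -1.31 (adjusted p = 0.0192) for Id2, -1.15 (adjusted p = 0.0021) for Id3 and -0.29 (adjusted p = 0.172) for Id1. Id4 was at 2.5 and 3.65 CPM with the inhibitor, 38.8 and 56.5 CPM with TGFb1+BMP4 and 4.65 and 10.6 CPM with ibuprofen added. Its rise over the inhibitor of 1.09 (SE 0.34, adjusted p = 0.0329) was lost without inhibitor replicate 1 (adjusted p = 0.172), inhibitor replicate 2 (0.0598) or ibuprofen replicate 2 (0.183). Smad6, the inhibitory SMAD of this branch, rose, at 3.45 and 2.6 against 18.6 and 24.9 CPM (log2 fold change 2.58, SE 0.21, adjusted p = 4.71e-05), and so did Grem1, a secreted BMP antagonist, at 16.8 and 23.4 against 132 and 133 CPM (log2 fold change 2.77, SE 0.25, adjusted p = 6.67e-05). Nog, another secreted antagonist, was at 0.999 and 1.85 against 2.75 and 2.85 CPM (log2 fold change 0.73, SE 0.29, adjusted p = 0.0705) and did not pass. Dlx3, a homeobox factor of suprabasal keratinocytes, went down, from 25.5 and 32.3 CPM to 1.9 and 4.25 CPM (log2 fold change -2.85, SE 0.28, adjusted p = 0.000102), while with ligands alone it was at 26.8 and 29 CPM. Added ibuprofen lowered 7 of the 14 members and raised 0 relative to ligands alone, against 8.86% and 10.7% of all genes.

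The promoters of Id2 and Id4 each hold a GGCGCC box, the GC-rich letters bound by SMAD1/5. The box is shown in capitals in sequences from RefSeq (build GRCm38.p6, from 250 bases before to 50 bases after the gene's start, 5′ to 3′ on the gene's strand).
Id2 promoter, chr12:25096043-25096342, minus strand: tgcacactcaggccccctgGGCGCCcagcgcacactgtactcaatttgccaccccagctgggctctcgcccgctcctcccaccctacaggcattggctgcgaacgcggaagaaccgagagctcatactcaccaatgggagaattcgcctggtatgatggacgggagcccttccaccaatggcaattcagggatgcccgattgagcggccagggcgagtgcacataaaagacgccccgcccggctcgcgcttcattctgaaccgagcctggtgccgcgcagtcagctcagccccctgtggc
Id4 promoter, chr13:48260866-48261165, plus strand: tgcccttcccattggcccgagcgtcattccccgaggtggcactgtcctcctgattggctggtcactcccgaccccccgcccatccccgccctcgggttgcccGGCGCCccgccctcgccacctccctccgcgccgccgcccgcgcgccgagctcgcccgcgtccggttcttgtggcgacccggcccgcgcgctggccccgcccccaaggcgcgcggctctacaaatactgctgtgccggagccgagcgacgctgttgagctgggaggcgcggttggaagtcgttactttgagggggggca
The box was found in 4 of the 9 BMP list members with a promoter sequence (Id2, Id4, Smad9 and Grem1) and in 11.9% of all 32851 promoters. Its carriers did not all change alike on adding ibuprofen to ligands. Id2 and Id4 fell (-1.31 and -2.51, adjusted p = 0.0192 and 0.00183), and Smad9 and Grem1 did not pass (-0.37 and -0.54, adjusted p = 0.405 and 0.161). GGCGCC reads the same on both strands, does not overlap another motif searched in these windows, and a match of letters is not evidence of binding. The SMAD box GTCTAGAC was in 0 of 14 TGFb list promoters and 0.213% of all, which says only that these letters are not in the windows.

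Hedgehog readouts were mostly lower than with the inhibitor, although all groups carry SmoM2: 6 of 11 tested members fell and 1 rose, median -0.51. Gli1, the GLI factor that is itself the standard Hedgehog target, was at 26.4 and 38.5 against 0.6 and 2.2 CPM (log2 fold change -3.79, SE 0.43, adjusted p = 0.000249). Gli2, the main activator downstream of Smoothened, was at 16.4 and 19.7 against 4.5 and 4.85 CPM (log2 fold change -1.66, SE 0.23, adjusted p = 0.000656). Ptch1, the Hedgehog receptor, was at 64.7 and 68.8 against 28.5 and 29.6 CPM (log2 fold change -1.08, SE 0.34, adjusted p = 0.0343), and missed the threshold when any of the 4 compared libraries was left out (adjusted p from 0.103 to 0.137). Ligands alone gave another picture: Gli1 was at 20.2 and 49.4 CPM, Gli2 at 32 and 54.3 CPM and Ptch1 at 125 and 336 CPM, so adding ibuprofen changed them by -3.82 (adjusted p = 0.000774), -2.86 (adjusted p = 0.000173) and -2.72 (adjusted p = 0.00126). Smo, whose activated form the transgene encodes, was at 162 and 187 against 147 and 158 CPM and did not pass (log2 fold change -0.09, SE 0.12, adjusted p = 0.569), with transgene and endogenous transcripts not separable here. Cdon, a Hedgehog co-receptor, rose to 47.5 and 52.5 CPM from 18.5 and 19.9 CPM (log2 fold change 1.43, SE 0.14, adjusted p = 0.000119). The GLI letters TGGGTGGTC were in 0 of the 8 list promoters with a sequence and in 0.253% of all promoters.

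**Figure D3:**
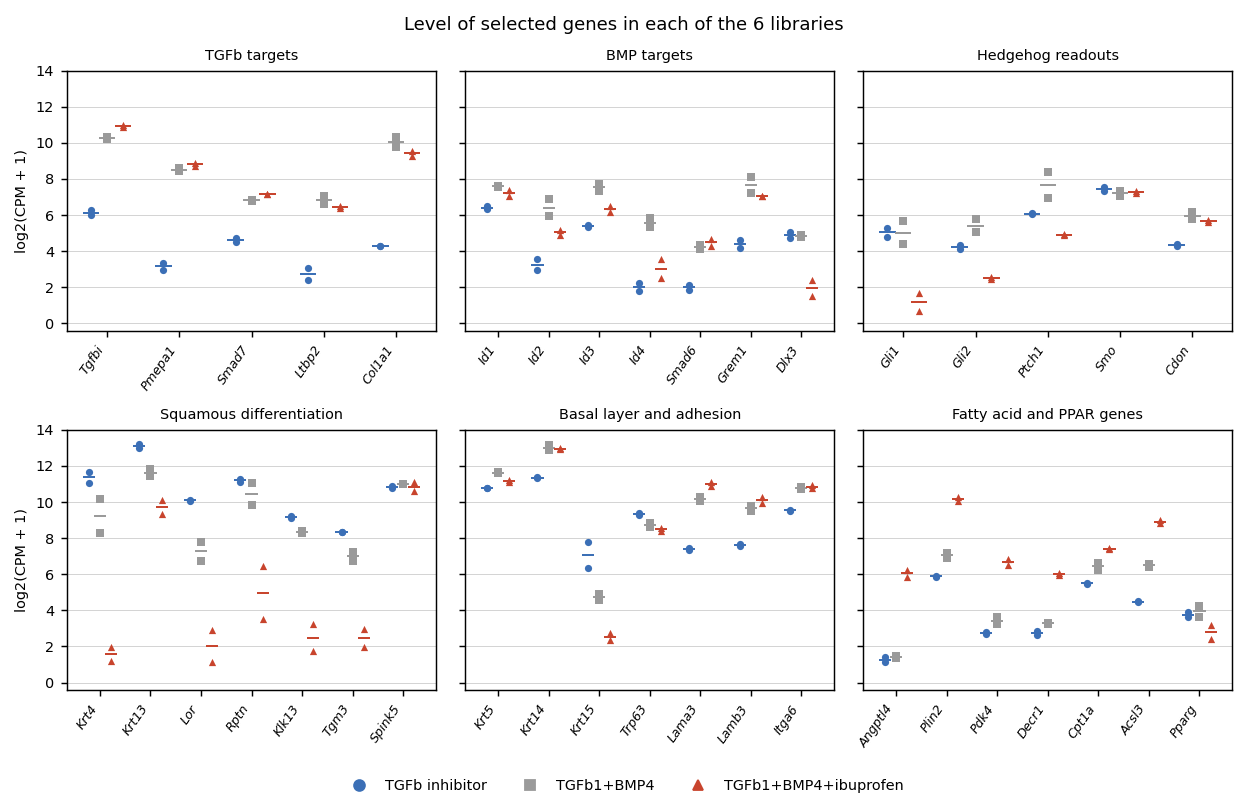
Level as log2(CPM + 1) in each of the 6 libraries for selected genes, with circles for the inhibitor, squares for TGFb1+BMP4, triangles for TGFb1+BMP4+ibuprofen and short bars for the mean of each group's 2 libraries. TGFb targets stand high in both ligand groups, whereas Gli1, Gli2, Dlx3 and the squamous genes Krt4, Klk13 and Rptn are lowest in the ibuprofen group, and Angptl4, Plin2, Pdk4 and Decr1 are high in that group.

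The squamous differentiation program was mostly lower, with 18 of 24 members lower, 2 higher (4 without ibuprofen replicate 1) and a median of -1.13. Krt4, the suprabasal esophageal keratin (chr15:101918535-101924735, minus strand, GRCm38), was at 3298 and 2158 against 2.9 and 1.25 CPM (log2 fold change -9.74, SE 0.54, adjusted p = 6.32e-06), the most negative change on the log2(CPM + 1) scale, which understates the change of genes that reach low levels. Its partner Krt13 was at 9331 and 8073 against 634 and 1116 CPM (log2 fold change -3.27, SE 0.27, adjusted p = 4.39e-05). Both keratins thus stayed detectable, but at levels whose ranges are far apart between groups. Cornified envelope proteins fell as well: loricrin, Lor, was at 1066 and 1115 against 1.2 and 6.54 CPM (log2 fold change -7.98, SE 0.51, adjusted p = 1.40e-05), and repetin, Rptn, at 2239 and 2508 against 10.3 and 86.6 CPM (log2 fold change -6.14, SE 0.79, adjusted p = 0.000467). Without ibuprofen replicate 1 these were -7.09 and -4.66, and without ibuprofen replicate 2 they were -8.89 and -7.63, and ibuprofen replicate 2 had the higher level of both. The same order of libraries was seen for Krtdap, a secreted keratinocyte differentiation peptide, at 702 and 758 against 2.05 and 18.4 CPM (log2 fold change -6.48, SE 0.74, adjusted p = 0.000239), which changed by -5.14 without ibuprofen replicate 1 and by -7.84 without ibuprofen replicate 2. Klk13, a kallikrein protease of squamous epithelium, was at 592 and 544 against 2.35 and 8.44 CPM (log2 fold change -6.57, SE 0.39, adjusted p = 8.96e-06), with -5.82 and -7.34 on leaving out ibuprofen replicates 1 and 2. The envelope crosslinker Tgm3 was at 319 and 324 against 2.9 and 6.89 CPM (log2 fold change -5.77, SE 0.30, adjusted p = 4.73e-06).

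Transcription factors that drive the program fell by less, with Klf4 at 671 and 713 against 252 and 304 CPM (log2 fold change -1.22, SE 0.14, adjusted p = 0.000216) and Grhl3 at 169 and 194 against 72.5 and 94.9 CPM (log2 fold change -1.02, SE 0.14, adjusted p = 0.000702). Among the 4 members that did not pass, Spink5, a protease inhibitor of the cornified layer, was at 1870.0 and 1736 against 1569.6 and 2192 CPM (log2 fold change 0.14, SE 0.17, adjusted p = 0.541). Crct1 was at 573 and 511 against 477 and 537 CPM (log2 fold change 0.00, SE 0.12, adjusted p = 0.99). The members that rose were Ivl and Ecm1. Ivl, involucrin, an envelope precursor, was at 0.999 and 1.05 against 20.5 and 11.4 CPM (log2 fold change 3.09, SE 0.26, adjusted p = 4.94e-05). Ecm1, a secreted matrix protein, was at 1118 and 733 against 3257 and 2552 CPM (log2 fold change 1.77, SE 0.26, adjusted p = 0.000939). With ligands alone 13 of the 24 were below the inhibitor group and 3 above. In that comparison 40.9% of all genes were called, 19.8% lower and 21.1% higher. Adding ibuprofen to ligands lowered 12 and raised 0, against 8.86% and 10.7% of all genes. Rptn was at 912 and 2164 CPM and Klk13 at 335 and 309.5 CPM with ligands alone. The difference between those libraries and the ibuprofen libraries was -5.42 (adjusted p = 0.00241) for Rptn and -5.79 (adjusted p = 7.11e-05) for Klk13.

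Other genes of the 12 largest falls were protease inhibitors, proteases, junction and surface genes. Serpinb12, a protease inhibitor, had 7897 reads over the inhibitor libraries and 1 read over the ibuprofen libraries, a depth-scaled ratio of 7000 with an exact 95% interval of 1260 to 277000 that covers counting error only. Serpinb3a, whose mouse copies are near-identical so that read assignment among them is uncertain, was at 206 and 389.9 CPM against no read, at least 1340-fold lower. The tight junction claudin Cldn8 was at 127 and 97 CPM against no read, at least 497-fold lower. Tmprss11a, a membrane serine protease, was at 903 and 790.0 against 3.2 and 6.54 CPM (log2 fold change -7.14, SE 0.24, adjusted p = 5.93e-07). Hrnr, another envelope gene, was at 125 and 293 against 0.3 and 0.35 CPM (log2 fold change -7.12, SE 0.69, adjusted p = 0.0001), a change that was -7.74 without inhibitor replicate 1 and -6.49 without inhibitor replicate 2 and missed the threshold with voom on recovered reads (adjusted p = 0.0595). Dsc1, a desmosomal cadherin of differentiated layers, was at 269 and 314 against 0.75 and 2.5 CPM (log2 fold change -6.80, SE 0.44, adjusted p = 1.44e-05). Ly6c1 was at 184 and 181 against 1.05 and 1.45 CPM (log2 fold change -6.28, SE 0.40, adjusted p = 1.40e-05).

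Basal genes did not move as a block: 10 of 15 rose, 4 fell, and the median was 0.93. Lama3 and Lamb3 encode laminin chains of the basement membrane, which anchors basal cells. Lama3 was at 164 and 173 against 2205 and 1881 CPM (log2 fold change 3.69, SE 0.13, adjusted p = 5.95e-07). Lamb3 was at 186 and 202 against 1226 and 972 CPM (log2 fold change 2.59, SE 0.14, adjusted p = 6.32e-06). Their integrin receptor Itga6 was at 727 and 753 against 1766 and 1944 CPM (log2 fold change 1.42, SE 0.12, adjusted p = 5.54e-05), and Itgb1 rose by 1.44 (SE 0.13, adjusted p = 7.19e-05). Krt14 was at 2691 and 2553 against 7735 and 8056 CPM (log2 fold change 1.69, SE 0.17, adjusted p = 0.000133). Its partner Krt5 was at 1743 and 1755 against 2225 and 2395 CPM (log2 fold change 0.50, SE 0.12, adjusted p = 0.0124), a change that missed the threshold without inhibitor replicate 1 (adjusted p = 0.104) or 2 (0.0828).

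In contrast to the laminins, regulators and other basal markers were lower. Trp63, the master regulator of stratified epithelia, was at 620.3 and 678 against 338 and 377 CPM (log2 fold change -0.76, SE 0.11, adjusted p = 0.000776). Sox2, a foregut progenitor factor, was at 120.2 and 130.3 against 64.3 and 53.8 CPM (log2 fold change -0.98, SE 0.11, adjusted p = 0.000227), and Itga3, another laminin receptor subunit, at 503 and 572 against 208 and 135 CPM (log2 fold change -1.58, SE 0.17, adjusted p = 0.000191). Krt15, a keratin of quiescent basal cells, was at 219.8 and 80.7 against 4.05 and 5.8 CPM (log2 fold change -4.43, SE 0.39, adjusted p = 6.69e-05), with -3.72 without inhibitor replicate 1 and -5.13 without inhibitor replicate 2. Among junction genes, 6 of 19 rose and 5 fell, or 3 without inhibitor replicate 2 (median 0.05). Besides Dsc1, the falls included Dsg1b, a desmoglein of upper layers, at 1042 and 1109.9 against 85.8 and 353 CPM (log2 fold change -2.52, SE 0.51, adjusted p = 0.00481), which changed by -1.51 without ibuprofen replicate 1 and by -3.55 without ibuprofen replicate 2 and has near-identical copies. The rises included desmoglein Dsg2 and plakophilin Pkp2, forms present in simple epithelia, by 1.24 (SE 0.23, adjusted p = 0.0031) and 2.83 (SE 0.32, adjusted p = 0.000231), and Cldn4 by 2.19 (SE 0.17, adjusted p = 2.96e-05).

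Of 7 epidermal and wound keratins 2 rose and 3 fell (median -0.12), and 0 rose when either inhibitor library was left out. Without ibuprofen replicate 2 the number that rose was 1, and 1 fell without inhibitor replicate 2. Krt6a, a keratin of injured epithelium, was at 4029 and 4119 against 5982 and 6741 CPM (log2 fold change 0.74, SE 0.16, adjusted p = 0.00612), and missed the threshold without inhibitor replicate 1 (adjusted p = 0.0758) or 2 (0.0581). Its near-copy Krt6b and Krt17 did not pass, at log2 fold changes of -0.12 and 0.01, and reads may be shared between Krt6a and Krt6b. Of the simple-epithelial list, 13 of 28 members were below the filter, and among the 15 tested 7 rose and 1 fell (median 0.72), or 4 rose without ibuprofen replicate 1. Krt20, an intestinal and umbrella-cell keratin, was at 1.95 and 1.3 against 242 and 200.2 CPM (log2 fold change 6.49, SE 0.36, adjusted p = 6.32e-06). Sox9, a progenitor factor of columnar and injured epithelia, was at 40 and 41.7 against 274 and 253 CPM (log2 fold change 2.76, SE 0.09, adjusted p = 5.38e-07). Epcam, an adhesion molecule that is low in normal squamous epithelium, was at 46.5 and 57 against 530.2 and 296 CPM (log2 fold change 3.02, SE 0.26, adjusted p = 5.92e-05). Krt7 and Krt19, keratins of ductal and Barrett-type epithelium, rose with ligands alone and did not pass here, and adding ibuprofen to ligands changed them by -2.35 (adjusted p = 0.0264) and -2.56 (adjusted p = 0.0106). Krt7 was at 8.79 and 3.25 CPM with the inhibitor, 89.3 and 26.4 CPM with TGFb1+BMP4 and 12.3 and 5.65 CPM with ibuprofen added, and Krt19 had a log2 fold change of 0.16 (adjusted p = 0.836) against the inhibitor, with 5.35 and 5.20 CPM against 6.10 and 5.15 CPM.

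Matrix genes were the highest list, with 22 of 27 higher, 1 lower (0 without inhibitor replicate 1, inhibitor replicate 2 or ibuprofen replicate 1) and a median of 2.79. The fold of Eln, the elastin gene, is a lower bound of 54.9-fold because no read was found with the inhibitor, and the median is the same with it at that bound. Col1a1, the main fibrillar collagen chain, was at 18.5 and 18.2 against 609 and 761 CPM (log2 fold change 5.23, SE 0.17, adjusted p = 5.14e-07). Lox, which crosslinks collagen, was at 12.2 and 16.6 against 276 and 387 CPM (log2 fold change 4.52, SE 0.22, adjusted p = 3.82e-06). Spp1, osteopontin, was at 111 and 125 against 1601 and 1753 CPM (log2 fold change 3.92, SE 0.15, adjusted p = 1.25e-06). Basement membrane collagen Col4a3 was at 0.3 and 0.65 against 43.3 and 59.7 CPM (log2 fold change 5.21, SE 0.20, adjusted p = 1.21e-06). Fibroblast markers, which share Col1a1, Col1a2 and Col3a1 with this list, moved alongside, as given above. Relative to ligands alone, ibuprofen lowered 11 of the 27 and raised 0, against 8.86% and 10.7% of all genes. Postn, periostin, was at 4.4 and 3.65 CPM with the inhibitor, 167 and 324 CPM with TGFb1+BMP4 and 25.7 and 44.4 CPM with ibuprofen added, and tenascin, Tnc, at 53.6 and 73 CPM with the inhibitor, 203 and 211 CPM with TGFb1+BMP4 and 52.7 and 55.2 CPM with ibuprofen added. In Tnc the ibuprofen libraries overlapped the inhibitor libraries (adjusted p = 0.561).

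Genes of matrix breakdown rose too, 13 of 15 with 1 lower and a median of 1.96. Plau, the urokinase that activates plasminogen, was at 10.3 and 16.2 against 156 and 134 CPM (log2 fold change 3.48, SE 0.19, adjusted p = 7.10e-06). Its receptor Plaur was at 2.35 and 2.1 against 54.2 and 33.1 CPM (log2 fold change 3.83, SE 0.24, adjusted p = 1.20e-05), against 4.6 and 4.65 CPM with ligands alone. Mmp9, a gelatinase, was at 0.55 and 0.4 against 82.5 and 50.4 CPM (log2 fold change 5.54, SE 0.24, adjusted p = 1.95e-06). The metalloprotease Adam12 was at 1.25 and 0.65 against 401 and 336 CPM (log2 fold change 7.65, SE 0.19, adjusted p = 2.02e-07). The general metalloprotease inhibitor Timp1 was also higher, at 2.2 and 3.0 against 171 and 206 CPM (log2 fold change 5.81, SE 0.19, adjusted p = 5.38e-07).

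Mesenchymal transition genes were raised in 9 of 14 tested members with 0 lower and a median of 1.41, while Cdh1 did not pass the test. Zeb1, a repressor of epithelial genes, was at 3.85 and 5.35 against 20.2 and 25.6 CPM (log2 fold change 2.19, SE 0.21, adjusted p = 0.000105), and vimentin, Vim, at 16.6 and 24.8 against 81 and 122 CPM (log2 fold change 2.33, SE 0.27, adjusted p = 0.000249). Snai1, which represses Cdh1, was at 1.1 and 0.949 against 14.4 and 14.3 CPM (log2 fold change 3.00, SE 0.20, adjusted p = 1.44e-05), whereas Snai2 did not pass (log2 fold change -0.16, SE 0.13, adjusted p = 0.352). Cdh2, the neural cadherin, rose by 1.98 (SE 0.27, adjusted p = 0.000638). The list's contractile genes split, with the tropomyosin Tpm1 at 81.2 and 85.8 against 276 and 266 CPM (log2 fold change 1.78, SE 0.08, adjusted p = 3.24e-06) and Tagln at 6.05 and 7.0 against 5.2 and 6.25 CPM (log2 fold change -0.08, SE 0.20, adjusted p = 0.783). Pdgfra, Pdgfrb and collagens of the fibroblast list rose in the same libraries, and their part in the mesenchymal values was not tested.

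Proliferation genes gave a uniform list in mitosis. All 19 mitosis genes tested fell (median -1.83), the smallest fall being that of Aurka at -0.65, near the threshold (adjusted p = 0.0472). Not every call held when a library was left out, with Aurka, Ccna2 and Cenpa among those that missed the threshold. Ligands alone lowered 17 of the 19 and raised 0 (median -1.49), against 19.8% and 21.1% of all genes. Adding ibuprofen to ligands lowered 1 and raised 0 (median -0.43), against 8.86% and 10.7% of all genes. Mki67, the proliferation antigen, was at 110.4 and 109.8 against 12 and 14 CPM (log2 fold change -2.90, SE 0.48, adjusted p = 0.00178). Cyclin B1, Ccnb1, was at 15.1 and 14.9 against 0.45 and 1.45 CPM (log2 fold change -3.02, SE 0.33, adjusted p = 0.000214). The anaphase activator Cdc20 was at 31.8 and 36.3 against 4.8 and 9.99 CPM (log2 fold change -2.04, SE 0.30, adjusted p = 0.000843). Among 17 replication genes 9 fell and 2 rose (median -0.67), and without inhibitor replicate 1 or ibuprofen replicate 1 the number that fell was 3 or 5, while 1 rose without inhibitor replicate 2. Mcm3, part of the replicative helicase, was at 16.1 and 14.2 against 3.35 and 2.85 CPM (log2 fold change -1.90, SE 0.29, adjusted p = 0.00118), while the ribonucleotide reductase subunit Rrm2 went the other way, at 11.1 and 8.7 against 29.5 and 29.9 CPM (log2 fold change 1.6, SE 0.15, adjusted p = 9.84e-05). Myc, the growth regulator repressed by TGFb, was at 237 and 216 against 64.7 and 59.1 CPM (log2 fold change -1.76, SE 0.09, adjusted p = 5.73e-06). The inhibitor Cdkn2b, p15, a SMAD target that arrests the cycle in epithelium, was at 11.2 and 9.44 against 61.2 and 47.7 CPM (log2 fold change 2.38, SE 0.19, adjusted p = 3.93e-05), and Cdkn1a, p21, at 284 and 293 against 391 and 393 CPM (log2 fold change 0.54, SE 0.10, adjusted p = 0.00335). Of the list of 8 CDK inhibitors and D cyclins 4 rose and 2 fell, or 2 rose without inhibitor replicate 1 or ibuprofen replicate 1, and 0 to 1 fell when inhibitor replicate 1 or either ibuprofen library was left out. The p53 list had 4 of 15 members higher, 5 lower (2 without inhibitor replicate 1 or ibuprofen replicate 2) and a median of 0. Mdm2, which degrades p53, rose by 0.86 (SE 0.12, adjusted p = 0.000666) and the apoptosis gene Pmaip1 by 1.78 (SE 0.23, adjusted p = 0.000425).

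Prostaglandin genes, which bear on the known enzyme target of ibuprofen, split evenly: 6 of 18 rose and 6 fell, and each count was 3 without inhibitor replicate 1 or ibuprofen replicate 1, with 2 lower without inhibitor replicate 2. Ptgs2, the inducible cyclooxygenase, was at 67.3 and 127 CPM with the inhibitor, 42.6 and 60.8 CPM with TGFb1+BMP4 and 164 and 140.4 CPM with ibuprofen added. Against the inhibitor this was a log2 fold change of 0.81 (SE 0.27, adjusted p = 0.0401), which missed the threshold when any of the 4 compared libraries but inhibitor replicate 2 was left out (adjusted p from 0.0856 to 0.232). Ptgs1, the constitutive form, was at 26.3 and 32.7 against 40 and 37.3 CPM (log2 fold change 0.48, SE 0.22, adjusted p = 0.113), without overlap of the groups but short of the threshold. Ptges, which makes prostaglandin E2, was at 76.1 and 94.6 CPM with the inhibitor, 6.9 and 8.54 CPM with TGFb1+BMP4 and 81 and 59.7 CPM with ibuprofen added. Its ibuprofen libraries thus overlapped the inhibitor libraries (log2 fold change -0.19, SE 0.17, adjusted p = 0.423) and exceeded those with ligands alone by 3.08 (adjusted p = 3.77e-05). The phospholipase Pla2g4a, which frees arachidonic acid, was at 24.1 and 26.5 against 56.2 and 55.3 CPM (log2 fold change 1.21, SE 0.16, adjusted p = 0.000616). On the side of removal, the transporter Slco2a1, which takes prostaglandins into cells, was at 99.2 and 91.8 against 171 and 136 CPM (log2 fold change 0.77, SE 0.12, adjusted p = 0.00108). The degrading dehydrogenase Hpgd was at 65.6 and 72.7 against 10.4 and 28.7 CPM (log2 fold change -1.83, SE 0.37, adjusted p = 0.00447), which changed by -1.14 without ibuprofen replicate 1 and by -2.54 without ibuprofen replicate 2. Transcript levels say nothing of enzyme activity or of prostaglandin amounts, which were not measured. Lipoxygenase and leukotriene genes fell in 3 of 4 tested members and 6 were below the filter. Aloxe3, an epidermal lipoxygenase of the cornified layer, was at 210.2 and 228 against 17.6 and 34.9 CPM (log2 fold change -2.99, SE 0.36, adjusted p = 0.000348).

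The list of PPAR receptors and targets was among those with the highest medians, with 13 of 16 higher, 2 lower and a median of 1.45. The 2 lower members were the receptors Ppard and Pparg. Angptl4, a secreted lipase inhibitor, was at 1.65 and 1.2 CPM with the inhibitor, 1.75 and 1.6 CPM with TGFb1+BMP4 and 74.5 and 57.5 CPM with ibuprofen added, a log2 fold change over the inhibitor of 4.86 (SE 0.21, adjusted p = 2.23e-06). Pdk4, which diverts pyruvate from oxidation, was at 5.5 and 6.1 CPM with the inhibitor, 8.49 and 11.2 CPM with TGFb1+BMP4 and 89 and 115 CPM with ibuprofen added, a change of 4.00 (SE 0.18, adjusted p = 2.74e-06). Plin2, the lipid droplet coat, was at 59.5 and 56.1 CPM with the inhibitor, 142 and 120.3 CPM with TGFb1+BMP4 and 1243 and 1062 CPM with ibuprofen added, a change of 4.39 (SE 0.12, adjusted p = 2.94e-07). In all 3 genes the ibuprofen libraries stood above every other library. The omega-hydroxylase Cyp4a10, one of several near-identical copies, had no read with the inhibitor, 28.2 and 12.9 CPM with ligands and 96.2 and 46.9 CPM with ibuprofen added, at least 363-fold above the inhibitor. Cd36, the fatty acid carrier, had 1 read against 54, a ratio of 60.9 with an exact interval of 10.5 to 2450. The receptors themselves were not higher: Ppard was at 209 and 245 against 153 and 146 CPM (log2 fold change -0.50, SE 0.11, adjusted p = 0.00611, and adjusted p = 0.057 without inhibitor replicate 2), Pparg was at 13.8 and 11.5 against 8.25 and 4.25 CPM (log2 fold change -0.88, SE 0.31, adjusted p = 0.0475, and adjusted p from 0.11 to 0.262 without inhibitor replicate 1, inhibitor replicate 2 or ibuprofen replicate 2), and Ppara was below the filter. Ligands alone raised 5 of these 16 genes and lowered 3, against 21.1% and 19.8% of all genes. Ibuprofen added to ligands raised 14 and lowered 1, against 10.7% and 8.86% of all genes. The response element core GGTCANAGG was in 0 of the 13 list promoters with a sequence and in 1.72% of all promoters.

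Enzymes of fatty acid oxidation followed the same direction in 12 of 19 members, with 3 lower and a median of 0.72. Decr1, needed for polyunsaturated chains, was at 5.1 and 6.35 against 67.2 and 62.4 CPM (log2 fold change 3.39, SE 0.16, adjusted p = 3.00e-06), against 8.6 and 8.99 CPM with ligands alone. Cpt1a, the carnitine gate into mitochondria, was at 44.2 and 43.6 against 175 and 166 CPM (log2 fold change 2.03, SE 0.13, adjusted p = 1.44e-05). Hadha, of the trifunctional protein, was at 97.9 and 101 against 171 and 177 CPM (log2 fold change 0.90, SE 0.09, adjusted p = 0.000112). Acaa1a, a thiolase of peroxisomes, fell, at 70.6 and 72.3 against 46.9 and 42.6 CPM (log2 fold change -0.57, SE 0.10, adjusted p = 0.00209), whereas Hsd17b4 of the same organelle rose by 0.83 (SE 0.12, adjusted p = 0.00079).

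Of 10 fatty acid synthesis genes 9 rose and 0 fell (median 0.82), or 1 fell without ibuprofen replicate 2. Acsl3, which activates fatty acids at lipid droplets, was at 21.9 and 20.7 against 511 and 453 CPM (log2 fold change 4.53, SE 0.11, adjusted p = 2.02e-07). The desaturase Scd2 was at 750.2 and 684 against 2292 and 2748 CPM (log2 fold change 1.91, SE 0.13, adjusted p = 1.65e-05). The synthase Fasn was at 342 and 297 against 515 and 493 CPM (log2 fold change 0.76, SE 0.10, adjusted p = 0.000558). Cholesterol genes rose in 15 of 25 members and fell in 3 (median 0.44), but 7 rose without inhibitor replicate 1, 9 rose without ibuprofen replicate 2 and 1 fell without inhibitor replicate 2. Acat2 was at 24.1 and 22.6 against 67.2 and 80.1 CPM (log2 fold change 1.71, SE 0.13, adjusted p = 2.84e-05) and the desaturase Sc5d at 101 and 105 against 239 and 255 CPM (log2 fold change 1.35, SE 0.10, adjusted p = 2.76e-05), whereas Sqle, a standard target of SREBP2, did not pass, at a log2 fold change of -0.10. Ligands alone lowered 14 of the 25 and raised 4, against 19.8% and 21.1% of all genes. Ibuprofen added to ligands raised 20 and lowered 0, against 10.7% and 8.86% of all genes. Lss, lanosterol synthase, shows this, with 230.1 and 214 CPM with the inhibitor, 117 and 119 CPM with TGFb1+BMP4 and 278 and 283 CPM with ibuprofen added. The sterol element ATCACCCCA was in 1 of 17 list promoters (Srebf2) and in 0.28% of all.

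Genes of the ATF4 response, which supplies amino acids under stress, fell in 14 of 21 members and rose in 2 (median -0.56), and were far lower with ligands alone. Ligands alone lowered 20 of the 21 and raised 0, against 19.8% and 21.1% of all genes. Ibuprofen added to ligands raised 18 and lowered 0, against 10.7% and 8.86% of all genes. Psat1, a serine synthesis enzyme, was at 264 and 245 CPM with the inhibitor, 12.5 and 18.4 CPM with TGFb1+BMP4 and 44.2 and 31.2 CPM with ibuprofen added, a change from the inhibitor of -2.65 (SE 0.18, adjusted p = 1.98e-05). Slc7a11, the cystine importer, was at 1542 and 2101 CPM with the inhibitor, 71.5 and 157 CPM with TGFb1+BMP4 and 532 and 534 CPM with ibuprofen added, a change of -1.66 (SE 0.30, adjusted p = 0.00246). Asns, asparagine synthetase, was at 380.4 and 409 CPM with the inhibitor, 74.2 and 89.4 CPM with TGFb1+BMP4 and 267 and 233 CPM with ibuprofen added, a change of -0.56 (SE 0.11, adjusted p = 0.00325). In each of these the ibuprofen libraries were lower than the inhibitor libraries and higher than those with ligands alone. The pseudokinase Trib3 was at 208 and 217 CPM with the inhibitor, 18.5 and 23.9 CPM with TGFb1+BMP4 and 105 and 59.4 CPM with ibuprofen added, a change of -1.31 (SE 0.22, adjusted p = 0.00189). Atf4 itself was at 463 and 469 CPM with the inhibitor, 209 and 198 CPM with TGFb1+BMP4 and 325 and 299 CPM with ibuprofen added, a change of -0.48 (SE 0.09, adjusted p = 0.00348). The members that rose were Nupr1, a stress-induced chromatin protein, at 91.5 and 83.6 CPM with the inhibitor, 95.3 and 68.2 CPM with TGFb1+BMP4 and 209 and 148 CPM with ibuprofen added, and Ddit4, an inhibitor of mTORC1, at 96.2 and 113 CPM with the inhibitor, 61.6 and 44.6 CPM with TGFb1+BMP4 and 239 and 156 CPM with ibuprofen added. Their changes against the inhibitor were 1.1 (SE 0.19, adjusted p = 0.00231) and 0.98 (SE 0.22, adjusted p = 0.00683), the latter with adjusted p = 0.0574 without inhibitor replicate 1, when 1 member of the list rose.

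The C/EBP-ATF element that ATF4 binds, TGATGNAA on either strand, is present in the promoters of Trib3 and Asns and is shown in capitals in the RefSeq windows of the same build and span as those above. On the strand printed, the match in Trib3 reads as its reverse complement.
Trib3 promoter, chr2:152344011-152344310, minus strand: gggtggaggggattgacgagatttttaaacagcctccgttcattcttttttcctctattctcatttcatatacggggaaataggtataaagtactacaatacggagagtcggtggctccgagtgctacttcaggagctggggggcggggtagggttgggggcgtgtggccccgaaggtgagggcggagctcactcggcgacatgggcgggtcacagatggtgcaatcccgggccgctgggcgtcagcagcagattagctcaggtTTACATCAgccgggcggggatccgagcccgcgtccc
Asns promoter, chr6:7693160-7693459, minus strand: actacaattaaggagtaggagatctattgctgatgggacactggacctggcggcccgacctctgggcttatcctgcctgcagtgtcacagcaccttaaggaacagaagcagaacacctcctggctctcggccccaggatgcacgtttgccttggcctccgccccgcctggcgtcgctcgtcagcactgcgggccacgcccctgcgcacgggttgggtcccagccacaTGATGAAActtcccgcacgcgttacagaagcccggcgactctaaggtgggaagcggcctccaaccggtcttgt
It was found in 7 of 20 list promoters (Trib3, Asns, Chac1, Slc7a11, Atf3, Pycr1 and Nupr1) and in 3.97% of all promoters. It overlaps no other motif searched in these windows. Carriers of the element did not all change alike, since Asns, Trib3, Slc7a11 and Atf3 fell, Nupr1 rose, and Chac1 and Pycr1 did not pass (-0.31 and -0.16, adjusted p = 0.0909 and 0.537).

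Neighbouring stress and energy lists had smaller median changes than the ATF4 list (-0.56), although in each a larger share of members was called than the 42.5% of all genes. Unfolded protein genes had 5 of 15 higher (3 when any of the 4 compared libraries was left out) and 4 lower (median 0.22). The chaperone Hspa5 was at 776 and 769 against 498 and 467 CPM (log2 fold change -0.58, SE 0.09, adjusted p = 0.000942), while Hsp90b1 rose by 0.47 (SE 0.09, adjusted p = 0.00266). NRF2 and glutathione genes had 9 of 18 higher and 4 lower, or 2 without inhibitor replicate 1 (median 0.45), led by glutathione reductase, Gsr, at 32.4 and 28.8 against 148 and 113 CPM (log2 fold change 2.14, SE 0.17, adjusted p = 3.37e-05), and on the low side by Gstm1 at 72.1 and 59.8 against 10.4 and 15 CPM (log2 fold change -2.21, SE 0.31, adjusted p = 0.000678). Glycolysis and hypoxia genes had 9 of 20 higher and 3 lower (median 0.31). The glucose carrier Slc2a1 was at 251 and 302 CPM with the inhibitor, 169 and 162 CPM with TGFb1+BMP4 and 613 and 604 CPM with ibuprofen added, a change over the inhibitor of 1.24 (SE 0.11, adjusted p = 7.37e-05), and Vegfa, the vascular growth factor, at 285 and 292 CPM with the inhibitor, 165 and 195 CPM with TGFb1+BMP4 and 502 and 447 CPM with ibuprofen added, a change of 0.81 (SE 0.10, adjusted p = 0.000322). With ligands alone, 16 of the 20 were lower and 0 higher than with the inhibitor, against 19.8% and 21.1% of all genes. On adding ibuprofen to ligands 15 were higher and 0 lower, against 10.7% and 8.86% of all genes. These comparisons share the libraries with ligands alone.

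Antimicrobial genes had the lowest median of any list, -3.11, with 10 of 11 lower and 1 higher. The calprotectin subunit S100a9 was at 914 and 979 against 53.3 and 29.3 CPM (log2 fold change -4.45, SE 0.22, adjusted p = 4.04e-06). Defb3, an epithelial defensin, was at 118 and 213 against 1.05 and 1.75 CPM (log2 fold change -5.99, SE 0.32, adjusted p = 5.73e-06). Chil1 was at 71.6 and 155 against 0.6 and 0.35 CPM (log2 fold change -6.12, SE 0.35, adjusted p = 7.84e-06). Defb14 was the member that rose, from 79.5 and 71.7 CPM to 152 and 168 CPM (log2 fold change 1.17, SE 0.15, adjusted p = 0.000396). Ligands alone lowered 8 of the 11 and raised 2 (median -1.89), against 19.8% and 21.1% of all genes. Adding ibuprofen to ligands lowered 4 and raised 2 (median -0.51), against 8.86% and 10.7%. With ligands alone Chil1 and Defb3 changed by -6.02 and -5.32, and adding ibuprofen did not pass (adjusted p = 0.879 and 0.18). S100a9 changed by -2.84 with ligands alone and by -1.61 on adding ibuprofen (adjusted p = 0.00184). Defb4 was at 46.7 and 63.3 CPM with the inhibitor, 35.1 and 85.6 CPM with TGFb1+BMP4 and 0.15 and 0.5 CPM with ibuprofen added, and its log2 fold change against the inhibitor of -5.34 (SE 0.36, adjusted p = 1.64e-05) stands beside a value of 0.05 (adjusted p = 0.921) with ligands alone and a difference between those groups of -5.39 (adjusted p = 7.07e-05).

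Inflammatory mediators changed in both directions, with 8 of 18 tested members higher, 4 lower and a median of 0.52. The neutrophil-attracting chemokines that bind CXCR2 were higher. Cxcl5 was at 1.4 and 2.35 against 74.1 and 52.7 CPM (log2 fold change 4.57, SE 0.27, adjusted p = 8.96e-06), Ppbp at 6.05 and 2.1 against 227 and 112 CPM (log2 fold change 5.19, SE 0.50, adjusted p = 0.000103). Cxcl1 was at 12.6 and 23.2 against 105 and 84.6 CPM (log2 fold change 2.49, SE 0.27, adjusted p = 0.000195). Cxcl1 had 12 and 8.85 CPM with ligands alone. Il6 rose by 1.78 (SE 0.22, adjusted p = 0.000395) and Csf1, the macrophage growth factor, by 1.89 (SE 0.14, adjusted p = 3.10e-05). On the low side, Ccl20, which attracts cells through CCR6, was at 24.9 and 90.1 against 0.15 and 0.2 CPM and had 879 reads with the inhibitor and 2 with ligands plus ibuprofen, a ratio of 390 with an exact interval of 108 to 3220. Il1rn, the interleukin 1 receptor antagonist, was at 443 and 620.0 against 37 and 68.8 CPM (log2 fold change -3.25, SE 0.27, adjusted p = 5.13e-05). The alarmin Il33 was at 27.6 and 38.9 CPM with the inhibitor, 83.1 and 87.9 CPM with TGFb1+BMP4 and 10.1 and 13.6 CPM with ibuprofen added, a change of -1.31 (SE 0.19, adjusted p = 0.000904). Interferon response genes were mostly too low to test, with 11 of 15 below the filter and 2 of the 4 tested higher, or 1 without inhibitor replicate 1, inhibitor replicate 2 or ibuprofen replicate 1. Irf7, an interferon-induced factor, was at 3.45 and 3.9 against 3.2 and 3.45 CPM (log2 fold change -0.03, SE 0.26, adjusted p = 0.93).

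Other signalling lists held a few large changes. Among 12 Wnt and Lgr genes 5 rose and 2 fell (median 0.26), with 0 lower without inhibitor replicate 2 or ibuprofen replicate 2 and 1 without ibuprofen replicate 1. The receptor Lgr6 had 1 read with the inhibitor and 725 with ligands plus ibuprofen, a ratio of 817 with an exact interval of 146 to 32300, and was at 402 and 308 CPM with ligands alone against 36.5 and 73.5 CPM with ibuprofen added. Axin2, the standard Wnt target, was at 3.3 and 6.6 against 1.2 and 0.799 CPM (log2 fold change -1.46, SE 0.37, adjusted p = 0.013), but missed the threshold without inhibitor replicate 2 (adjusted p = 0.102) or ibuprofen replicate 2 (0.0704). Of 10 Notch genes 3 rose and 5 fell (median -0.41). The ligands exchanged, with Jag1 at 207 and 219 against 900.0 and 783 CPM (log2 fold change 2.07, SE 0.14, adjusted p = 1.51e-05) and Jag2 at 204 and 209.6 against 47.5 and 44.6 CPM (log2 fold change -2.04, SE 0.14, adjusted p = 1.65e-05). The receptor Notch1 was at 550.0 and 415 against 206 and 182 CPM (log2 fold change -1.20, SE 0.13, adjusted p = 0.000204). In the EGF family 1 of 10 rose and 3 fell (median -0.15), or 2 rose when either TGFb1+BMP4 library was left out, the rise in the full data being the ligand Tgfa at 165 and 169 against 263 and 283 CPM (log2 fold change 0.80, SE 0.09, adjusted p = 0.000277). Nrg1, a ligand of ERBB3, was at 178 and 251 against 96.6 and 65.2 CPM (log2 fold change -1.30, SE 0.20, adjusted p = 0.00119). The receptor Erbb2 was at 99.9 and 112 against 47.1 and 49.7 CPM (log2 fold change -1.01, SE 0.13, adjusted p = 0.000378). Immediate early factors fell in 6 of 10 members with 1 higher (median -0.57), among them Egr3 at 37 and 37.5 against 2.35 and 2.5 CPM (log2 fold change -3.40, SE 0.18, adjusted p = 5.06e-06), while Fos was the member that rose, by 0.64 (SE 0.13, adjusted p = 0.00416). YAP targets rose in 4 of 7 members with 0 lower (median 0.93), with Ankrd1 at 20.1 and 21.1 against 59.6 and 82.1 CPM (log2 fold change 1.81, SE 0.18, adjusted p = 0.000123).

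Among the other members of the 12 largest rises, Cdh6, a cadherin of kidney and mesenchyme, had the smallest adjusted p of all genes, at 0.55 and 1.05 against 399 and 361 CPM (log2 fold change 7.81, SE 0.14, adjusted p = 8.46e-08). Also in this group, Prg4, the lubricating proteoglycan of joints, was at 5.75 and 6.75 against 789.7 and 943 CPM (log2 fold change 6.99, SE 0.17, adjusted p = 2.02e-07). Both were also higher than with ligands alone, where Cdh6 was at 116 and 121 CPM and Prg4 at 122 and 177 CPM. Itgb3, a vitronectin receptor subunit, was at 0 and 0.65 against 61.8 and 69.8 CPM (log2 fold change 5.76, SE 0.24, adjusted p = 1.58e-06). Fst, follistatin, which binds activins and some BMPs, was at 14.8 and 11.1 against 884 and 415 CPM (log2 fold change 5.55, SE 0.34, adjusted p = 1.19e-05). Stmn2, a microtubule regulator best known in neurons, was at 0.55 and 0 against 79.3 and 93 CPM (log2 fold change 6.19, SE 0.20, adjusted p = 5.38e-07). The collagen gene Col5a3, among the 8 smallest adjusted p-values, was at 0.45 and 0.55 against 61.5 and 63 CPM (log2 fold change 5.47, SE 0.14, adjusted p = 2.02e-07). On adding ibuprofen to ligands, Itgb3 and Fst were higher (1.31 and 1.15, adjusted p = 0.00637 and 0.048). Stmn2 was lower than with ligands alone (-0.85, adjusted p = 0.0203), and Col5a3 did not pass (-0.05, adjusted p = 0.854).

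Finally, 8 genes were picked because they passed against the inhibitor in opposite directions, higher with ligands alone and lower with ligands plus ibuprofen, so their values are a description and no test of that pattern. Dsg1a, a desmoglein with near-identical copies, was at 43.4 and 60.3 CPM with the inhibitor, 486 and 679.8 CPM with TGFb1+BMP4 and 2.35 and 17.3 CPM with ibuprofen added. Tgm7, a transglutaminase, was at 5.65 and 18.2 CPM with the inhibitor, 78.1 and 134 CPM with TGFb1+BMP4 and 0.15 and 0.799 CPM with ibuprofen added. Calml3, a calmodulin-like protein of differentiating keratinocytes, was at 130.4 and 167 CPM with the inhibitor, 502 and 332 CPM with TGFb1+BMP4 and 6.95 and 16.7 CPM with ibuprofen added. For these 3 the groups are ordered in every library, with ligands alone highest and ibuprofen added lowest. The hair-follicle keratin Krt75 was at 6.75 and 4.55 CPM with the inhibitor, 29.2 and 48.2 CPM with TGFb1+BMP4 and 0.9 and 1.1 CPM with ibuprofen added, and the phospholipase Plb1 at 7.84 and 9.19 CPM with the inhibitor, 41.4 and 40.6 CPM with TGFb1+BMP4 and 1.6 and 1.75 CPM with ibuprofen added. Cyp2f2, an oxidative enzyme of airway cells, had 47 reads over the inhibitor libraries and 1 over the ibuprofen libraries, against 29.1 and 14 CPM with ligands alone. Wif1, a secreted Wnt inhibitor, was at 1.8 and 6.9 CPM with the inhibitor, 7.9 and 24.3 CPM with TGFb1+BMP4 and 0 and 0.5 CPM with ibuprofen added, and the decoy receptor Il1r2 at 2.35 and 3.25 CPM with the inhibitor, 10.3 and 22.3 CPM with TGFb1+BMP4 and 0 and 0.5 CPM with ibuprofen added. The falls of Dsg1a, Wif1 and Il1r2 against the inhibitor were not called in every fit that left out 1 library: without inhibitor replicate 2 the adjusted p was 0.0683 for Dsg1a, 0.185 for Wif1 and 0.0622 for Il1r2. For Wif1 it was also 0.14 without ibuprofen replicate 1 and 0.0539 without ibuprofen replicate 2, and for Il1r2 it was 0.058 without ibuprofen replicate 1. Krt10, an epidermal keratin, followed the same order at 16.6 and 44.9 CPM with the inhibitor, 854 and 1241 CPM with TGFb1+BMP4 and 7.8 and 11.8 CPM with ibuprofen added; its change of -1.33 against the inhibitor was lost without inhibitor replicate 2 (-0.62, adjusted p = 0.127) or ibuprofen replicate 1 (-1.06, adjusted p = 0.151). Amtn, an enamel-organ protein, was at 0 and 0.15 CPM with the inhibitor, 1149 and 758 CPM with TGFb1+BMP4 and 1.3 and 5.65 CPM with ibuprofen added.

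**Figure D4:**
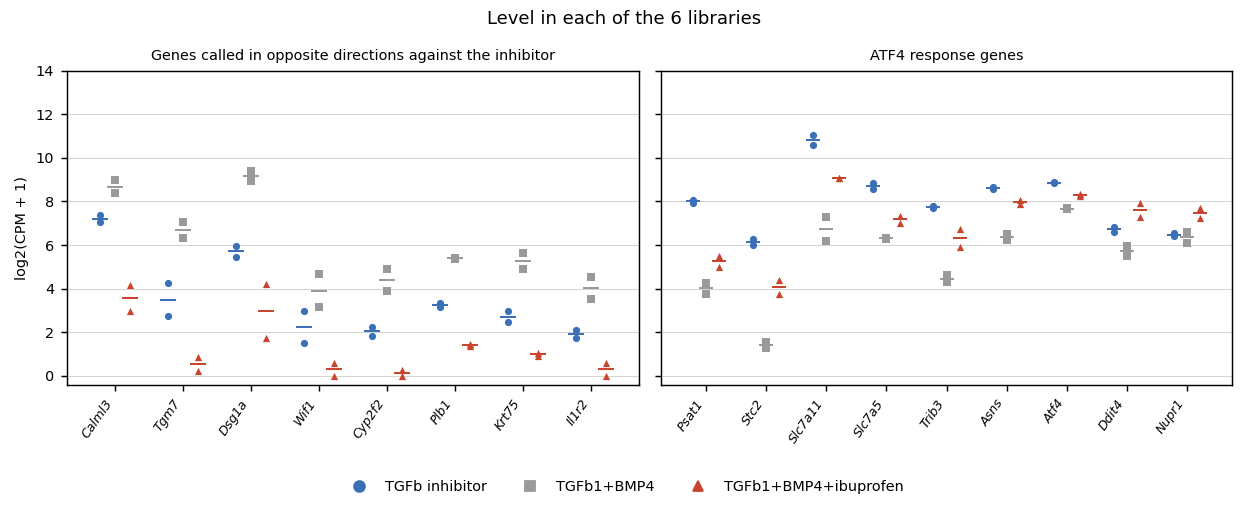
Level as log2(CPM + 1) in each of the 6 libraries, with circles for the inhibitor, squares for TGFb1+BMP4, triangles for TGFb1+BMP4+ibuprofen and short bars for the mean of 2 libraries. On the left, the 8 genes chosen for opposite directions are highest with ligands alone; on the right, ATF4 response genes such as Psat1 and Slc7a11 are lowest with ligands alone, and Ddit4 and Nupr1 are highest with ibuprofen added.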

How the data were processed

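RNA was sequenced on a NovaSeq after library preparation with the Ovation Solo RNA-seq kit, per the labels' protocols. The submitters' processing notes name STAR 2.5.3a, Cell Ranger 3.1.0, HTSeq, edgeR and the builds GRCm38 and mm10, with no roles given. The authors deposited a table with a scaled signal column and a CPM column for each library, an average log2 expression and log2 fold changes over the inhibitor group, and a p-value and adjusted p-value for each gene, per the file headers. The deposited p-values were not used, since the comparison behind them is not named. The deposited fold changes were not used for the results given here. Raw counts were not analysed here. Reads per library were recovered from the smallest steps of the scaled signal and served for depth, for the floor of 3 reads, for exact 95% intervals of read ratios, which cover counting error only, and for an added alternative. CPM was scaled with TMM factors and tested as log2(CPM + 1) with limma 3.58.1 (R 4.3.3, trended moderated variances, 2-sided, Benjamini-Hochberg adjustment over 17424 genes). All 6 libraries shared the variance estimate. Fold changes on the log2(CPM + 1) scale understate the change of low genes. CPM is not divided by gene length, so levels are compared between libraries and not between genes. Named genes were the 12 largest rises and falls among called genes with non-overlapping libraries and at least 5 CPM in the higher group, the 8 smallest adjusted p, up to 4 per list by adjusted p, 8 genes called in opposite directions against the inhibitor and 32 fixed genes. Other genes named beside these were picked from the lists after their values were seen. Members and gene lists were chosen with earlier results of these data known. Tested on simulated data of the same size, the fit called 60.0% of genes changed by a log2 of 1, 87.1% of those changed by 2 and 0.00593% of unchanged genes. Only 95 and 93 genes with these changes were tested there, among 17041. Every library was drawn from the mean of the inhibitor group with the same dispersion for all genes. The real comparison called 42.5% of genes, so these rates check the code and do not give its error rates. Some named genes are not reported here. Positions are from the GENCODE annotation of GRCm38.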

Additional observations from a re-analysis of the deposited data

How the results depend on the processing

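Under 15 alternatives, leaving out a library moved the number of calls most: the genes called ranged from 4816 (without inhibitor replicate 1) to 7471, those higher from 2626 to 3928, and those lower from 2190 (without inhibitor replicate 1) to 3543, with 2209 lower without inhibitor replicate 2. Counts of changes of at least 2-fold moved most with the pseudocount, to 1974 higher and 1672 lower at 0.25 and to 1359 and 1108 at 2. With no scaling factors 3328 genes were higher and 4234 lower, which put 44% of calls on the higher side (52.6% with factors) and shifted the all-gene median to -0.1. With limma-voom on recovered reads, an alternative chosen after seeing the data, 3826 were higher and 3439 lower. The planned edgeR test was not run, because the recovered reads did not pass a check as whole counts. The replicate block gave 7945 calls, and no pairing was established from 2 shared numbers (correlations of same-numbered deviations 0.184, 0.191 and 0.268). Of 177 called genes among the 185 named, 156 kept the call under all 15 alternatives. Ptgs1 passed with only the 4 libraries compared (adjusted p = 0.024) and with the replicate block (0.0418), and Krt7 passed with the block (0.0312). Changes of sign were seen only in genes that did not pass, and the cause was not tested. Bst2 was at -0.07 with no scaling factors. On leaving out a library, the range of log2 fold changes was -0.07 to 0.09 for Bst2, -0.11 to 0.04 for Irf7 (0.01 without ibuprofen replicate 1), -0.27 to 0.08 for Csf1r, -0.05 to 0.45 for Pecam1 and -0.4 to 0.02 for Ptges. At 6413873 to 7730582 reads, 3 reads in a library correspond to about 0.4 CPM, and differences among genes near that level were not detectable.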

Other observations

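Odam and Alox15 were below the filter of the comparison but stood high with ligands alone. Odam, a protein of the enamel organ and junctional epithelium, was at 488 and 194 CPM with TGFb1+BMP4 and at 0 in the 2 inhibitor and 2 ibuprofen libraries. Alox15, a lipoxygenase that oxidises arachidonic and linoleic acid, was at 7.0 and 0.3 CPM with the inhibitor, 247 and 60.8 CPM with TGFb1+BMP4, and 0 and 0.2 CPM with ligands plus ibuprofen. These values were picked from genes fixed with earlier results known and were not tested.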
